A study of Mus musculus with 10 samples.

Results

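The Hox cluster genes are the homeobox genes that lie in the 4 clusters Hoxa to Hoxd. They were taken as all gene symbols made of Hox, a cluster letter from a to d and a paralog number, which gave 39 of the 22878 genes in the RNA-Seq tables: 11 in Hoxa, 10 in Hoxb, 9 in Hoxc and 9 in Hoxd. The shSmyd5 samples were R1 mouse embryonic stem (ES) cells infected with lentivirus that carries a short hairpin RNA against Smyd5, a gene for a histone methyltransferase, and selected with puromycin. The shLuc samples, their control, carried a hairpin against luciferase, which mouse cells do not have. Each was profiled as undifferentiated ES cells, grown for the RNA work, per the labels, on gelatin without feeder cells but with serum, LIF and the GSK3 inhibitor CHIR9901, and as embryoid bodies (EBs), 3D aggregates formed in low-attachment dishes without LIF, at 24 h and on days 6, 10 and 14. Each condition has 1 library of polyA RNA, 10 in all, and the labels do not say which Smyd5 hairpin was used or whether the cells were 1 clone. Thus no comparison of shSmyd5 with shLuc at a single stage has a replicate.

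Hox genes encode transcription factors that give cells their position along the head to tail axis of the embryo. Within a cluster the genes lie in the order of the body regions they pattern, so that paralog group 1 acts in the hindbrain and groups 9 to 13 in the trunk, limbs, urogenital tract and tail, and genes at the anterior end are generally switched on first. In ES cells the clusters are held silent under Polycomb chromatin, and differentiation, retinoic acid and the CDX factors open them.

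Libraries held 3895537 (shLuc ES cells) to 43377814 (shLuc day 6 EBs) reads in genes, and Hox genes took 0.00118% (shLuc ES cells) to 0.0223% (shLuc day 14 EBs) of them. Smyd5 itself was lower in shSmyd5 at 5 of 5 stages, with an RPKM (a read count divided by transcript length and by depth) of 0.492 to 9.14 in shSmyd5 and 10.7 to 29.7 in shLuc, and log2 folds of -2.69, -3.44, -4.71, -1.44 and -0.92 from ES cells to day 14. The knockdown was thus smallest, under 2-fold, at day 14. Of 7 ES cell markers 7 had an RPKM of at least 1 in both ES cell libraries, with a summed RPKM of 2445 in shSmyd5 and 3121 in shLuc ES cells. The shSmyd5 libraries of 24 h and day 6 stood apart in how their reads fell. In these libraries a Hox gene tended to have either no read or many: in shSmyd5 24 h EBs 26 members had 0 reads, 2 had 1 to 9 and 11 had 10 or more, against 9, 16 and 14 in shLuc 24 h EBs. In shSmyd5 day 6 EBs 19 members had 0 reads, 0 had 1 to 9 and 20 had 10 or more, against 9, 13 and 17 in shLuc day 6 EBs. Over the 6196 genes with a mean RPKM of 0.1 to 3, 33.2% (24 h) and 25.4% (day 6) had 0 reads in shSmyd5, against 16.4% and 8.52% in shLuc. The tests over the stages are therefore given with and without these 2 libraries. Comparisons of shSmyd5 with shLuc at 24 h or day 6 rest on them and have no counterpart without them. The shLuc ES cell library, in which 2 members had 10 or more reads, limits what can be said of ES cells.

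**Figure D1:**
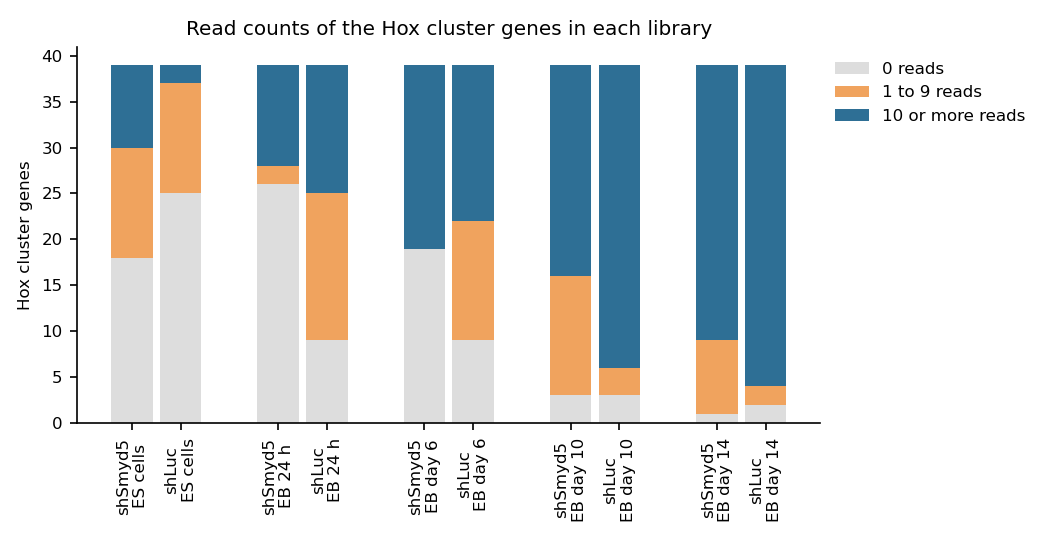
Number of Hox cluster genes (y axis, of 39) with 0, 1 to 9 and 10 or more reads in each library (x axis, shSmyd5 left of shLuc at each stage). The shSmyd5 libraries of 24 h and day 6 held 2 and 0 genes in the middle class, against 16 and 13 in the shLuc libraries of the same stages.

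The protein that each Hox gene encodes binds DNA through its homeodomain, encoded by a stretch of 180 bases, the homeobox, which a script found in the GENCODE M1 coding sequence of 39 of 39 members. The homeoboxes of an anterior, a central and 2 posterior members, those whose levels the results below turn on, are shown 5′ to 3′ on the coding strand to let the relation between them be seen. Coordinates are of NCBIM37 (mm9), and capitals mark codons 42 to 58, which encode most of the recognition helix that enters the major groove.
Hoxb2, chr11:96214299-96214478, plus strand: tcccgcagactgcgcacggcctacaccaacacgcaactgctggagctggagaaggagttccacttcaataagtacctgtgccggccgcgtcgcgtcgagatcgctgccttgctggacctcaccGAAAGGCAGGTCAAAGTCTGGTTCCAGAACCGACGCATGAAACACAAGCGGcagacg
Hoxc8, chr15:102823002-102823181, plus strand: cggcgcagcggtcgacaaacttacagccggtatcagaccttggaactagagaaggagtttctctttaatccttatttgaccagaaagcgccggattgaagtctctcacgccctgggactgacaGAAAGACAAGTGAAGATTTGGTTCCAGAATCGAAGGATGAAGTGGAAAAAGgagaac
Hoxa10, chr6:52182553-52182732, minus strand: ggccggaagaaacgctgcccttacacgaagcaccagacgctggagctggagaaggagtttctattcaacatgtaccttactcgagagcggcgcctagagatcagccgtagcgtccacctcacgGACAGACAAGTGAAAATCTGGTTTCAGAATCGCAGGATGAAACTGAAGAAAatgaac
Hoxd13, chr2:74507987-74508166, plus strand: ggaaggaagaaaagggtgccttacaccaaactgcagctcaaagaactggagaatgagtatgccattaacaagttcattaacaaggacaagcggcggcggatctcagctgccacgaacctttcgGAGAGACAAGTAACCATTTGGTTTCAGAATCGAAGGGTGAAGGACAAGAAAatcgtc
The capitals are more alike than the rest: over the 699 pairs of members with different paralog numbers, the median DNA identity was 60.6% in the whole homeobox and 76.5% in the marked stretch. Members with the same paralog number, 42 pairs, had a median identity of 80.6% (range 67.2% to 93.9%). Outside the homeobox the transcripts differ, and for most members the longest identical run shared with another was short (median 29 bases over members). Exchange of reads between paralogs is possible where runs are longer, as in 6 members that share 50 bases or more. The longest, 1069 bases, belongs to the GENCODE transcripts of Hoxb7 and Hoxb8, which overlap on the genome. Reads were counted on RefSeq transcripts, that of Hoxb7 being 1269 bases long, and whether these share the run was not checked. By whole gene spans, introns included, 26 members overlap another annotated gene and 13 overlap one on the opposite strand. Where transcripts on opposite strands share bases, their reads cannot be told apart, as the libraries carry no known strand.

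Hox genes were silent or near silent in ES cells and came on in late EBs, to a lower level in shSmyd5 than in shLuc. From ES cells through 24 h, day 6 and day 10 to day 14, the summed RPKM of the 39 genes was 4.79, 7.17, 13.5, 32.8 and 36.5 in shSmyd5 and 3.65, 27.3, 5.27, 44.8 and 80.2 in shLuc. Each stage was above the last in shSmyd5, whereas shLuc had a peak at 24 h, was low again at day 6 and was above shSmyd5 at both late stages. The log2 ratio of the sums, shSmyd5 over shLuc, was 0.39 in ES cells (95% interval -0.06 to 0.85), -1.93 (-2.07 to -1.79) for 24 h EBs, 1.36 (1.23 to 1.48) for day 6, -0.45 (-0.55 to -0.35) for day 10 and -1.14 (-1.20 to -1.07) for day 14. These intervals, like all intervals here, cover counting error only and compare 2 libraries, not the conditions. In these bulk samples fewer Hox-expressing cells and less Hox RNA per cell cannot be told apart.

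**Figure D2:**
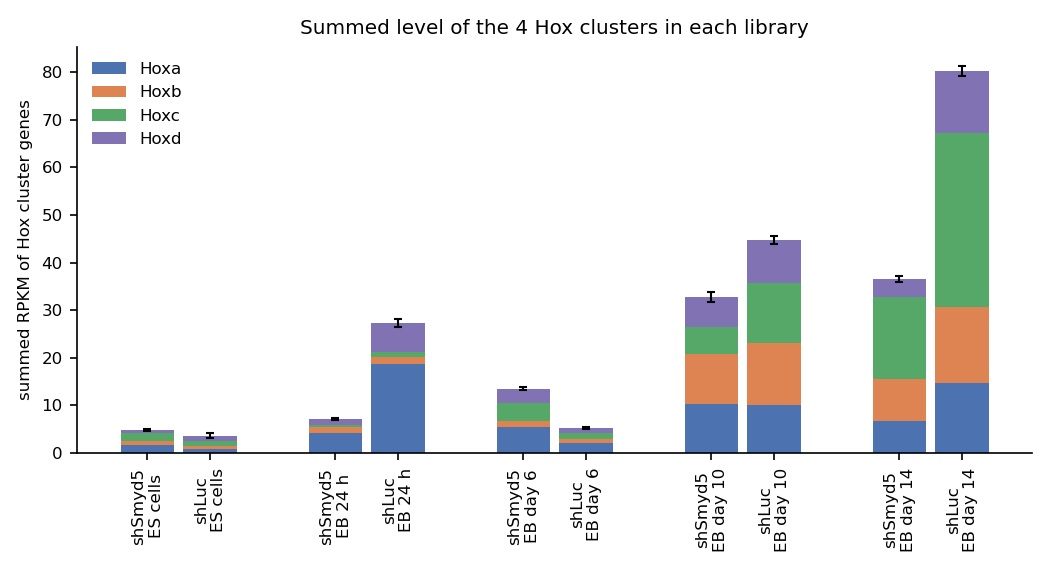
Summed RPKM of the Hoxa, Hoxb, Hoxc and Hoxd genes (y axis, stacked) in each of the 10 libraries (x axis, shSmyd5 left of shLuc at each stage). Error bars are 1 standard error of the total from counting. The totals were 36.5 in shSmyd5 and 80.2 in shLuc day 14 EBs.

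Members with an RPKM of at least 1 are called on here. In shSmyd5 2, 1, 5, 9 and 10 members were on from ES cells to day 14, against 0, 5, 0, 16 and 22 in shLuc. In all, 25 members were on in some library, 10 reached an RPKM of 3 and 2 (Hoxa10 and Hoxc8) reached 10. The other 14 stayed below 1 in every library, with highest values from 0.111 (Hoxa6, 3 reads in shLuc day 14 EBs) to 0.998 (Hoxa11, in shLuc 24 h EBs). Among those that stayed low were 5 of the 11 Hoxa genes, 3 of the 10 Hoxb genes, 3 of the 9 Hoxc genes and 3 of the 9 Hoxd genes, and Hoxc11, Hoxc12 and Hoxd12 of the far posterior groups had at most 8, 8 and 16 reads in any library. By RPKM, 12 members had their highest level in shSmyd5 at day 14 and 11 at day 10, against 20 and 8 in shLuc.

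**Figure D3:**
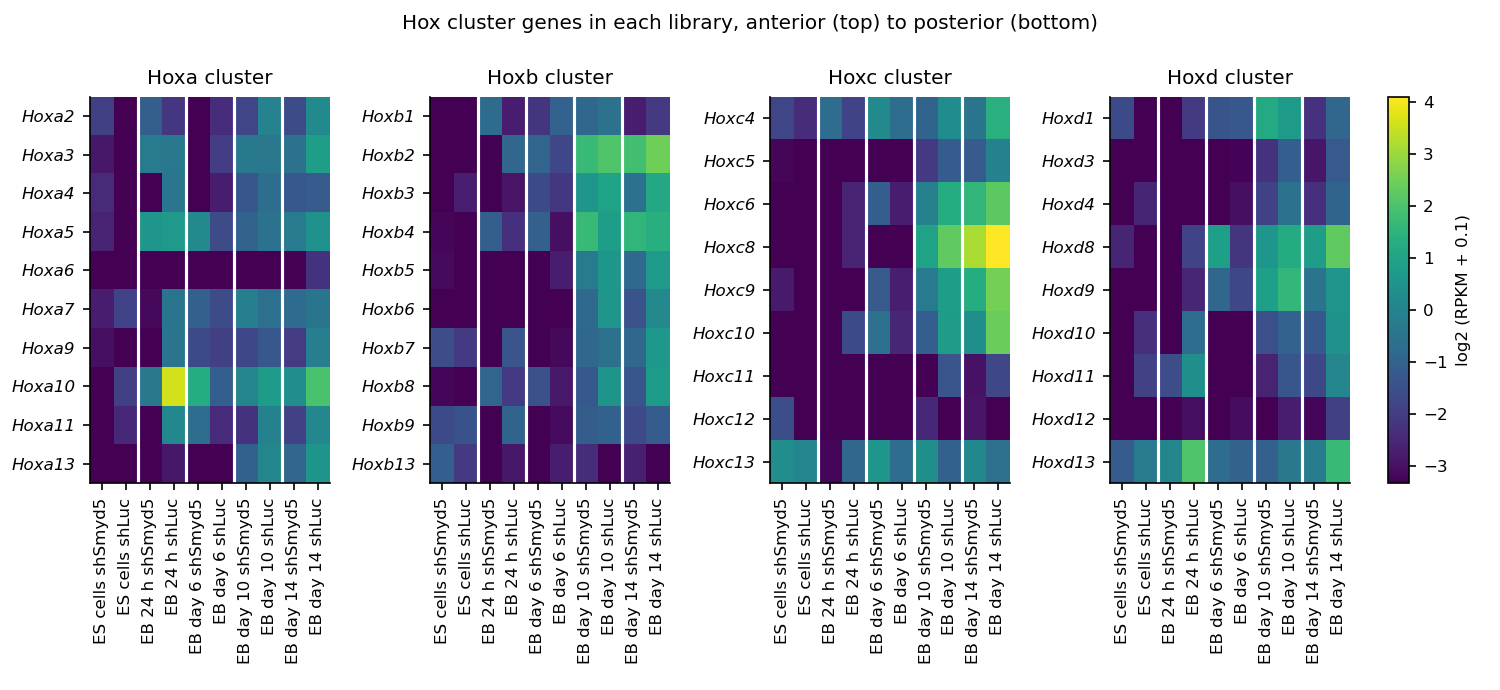
RPKM of 38 of the 39 Hox cluster genes (rows, paralog number increasing downward) in each library (columns, shSmyd5 left of shLuc at each stage), as log2 of RPKM plus 0.1 in colour, 1 panel per cluster. Bright cells gather in the 4 right-hand columns of the Hoxb and Hoxc panels. Hoxa10 in shLuc 24 h EBs (RPKM 11.8) stands above its neighbours Hoxa9 (0.619) and Hoxa11 (0.998) in that column.

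Hoxc8, a central gene that patterns thoracic vertebrae and brachial motor neurons, was the most abundant member. It had an RPKM of 0, 0, 0, 1.84 and 8.85 in shSmyd5 from ES cells to day 14, and of 0, 0.0659, 0, 4.78 and 17.0 in shLuc. Both ES cell libraries had 0 reads, which with 3 reads as the limit allows an RPKM of up to 0.0321 in shSmyd5 and 0.227 in shLuc, so day 14 was at least 276-fold higher than ES cells in shSmyd5 and at least 74.9-fold in shLuc. At both late stages the shSmyd5 library was the lower, with a log2 fold (RPKM plus 0.1) of -1.33 at day 10 (-1.71 to -0.97) and -0.93 at day 14 (-1.06 to -0.81).

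Its cluster neighbours were on with it. Hoxc9, which acts in motor neurons of the thoracic spinal cord, had 0.745 and 2.29 in shSmyd5 at day 10 and day 14, against 1.64 and 5.69 in shLuc. Hoxc10, which acts in lumbar and hindlimb patterning, had 0.368 and 1.20 in shSmyd5 against 1.63 and 5.16 in shLuc at these stages, and a day 14 log2 fold of -2.01 (-2.34 to -1.70). Hoxc6, a thoracic gene, had 0.844 and 2.86 in shSmyd5 against 2.31 and 4.58 in shLuc. These 3 genes were each lower in shSmyd5 at both stages, by differing amounts. The Hoxc genes together reached 17.2 in shSmyd5 and 36.6 in shLuc at day 14, 47.1% and 45.6% of all Hox RPKM, the largest share of the 4 clusters there. Hoxc13, a gene of hair follicle and tail that lies at the 5′ end of the cluster, differed from them. It had reads in every library (1 read in shSmyd5 24 h EBs), at 1.15, 0.00982, 1.40, 1.18 and 1.01 in shSmyd5 and 0.957, 0.449, 0.528, 0.391 and 0.561 in shLuc from ES cells to day 14. It did not rise steadily over the stages in either shRNA. Its RPKM was higher in shSmyd5 at each stage except 24 h. The interval of its log2 fold in ES cells was -0.53 to 1.07, and the 24 h and day 6 values of shSmyd5 came from the 2 libraries that stood apart in their reads.

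Hoxb2, which patterns the hindbrain at the level of the facial nerve, led its cluster. It had an RPKM of 0, 0, 0.438, 3.18 and 3.51 in shSmyd5 and of 0, 0.448, 0.1996, 4.03 and 5.42 in shLuc from ES cells to day 14. The 2 late stages stood clear of the early ones in both shRNAs, and day 14 was at least 75.3-fold over the ES cell limit in shSmyd5 and at least 16.4-fold in shLuc. Hoxb4, a gene of the posterior hindbrain and of blood progenitors, was the one Hoxb gene that was on and higher in shSmyd5, with 3.12 at day 10 and 2.84 at day 14 against 1.65 and 2.40 in shLuc. The other 5 Hoxb genes that were on at day 14 (Hoxb3, Hoxb5, Hoxb6, Hoxb7 and Hoxb8) had log2 folds from -2.04 (Hoxb8) to -1.42 (Hoxb5).

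In the Hoxd cluster Hoxd8 had the highest mean level, with 0.0712, 0, 1.71, 1.39 and 1.63 in shSmyd5 and 0, 0.183, 0.120, 2.26 and 4.79 in shLuc. In shSmyd5 its day 6 value, from 157 reads against 11 in shLuc, was near its late values, though it comes from a library with clumped reads, and in shLuc the day 14 value stood highest. Hoxd13, the gene of digits and genital tubercle at the other end of the cluster, had 0.347, 0.953, 0.525, 0.387 and 0.772 in shSmyd5 and 0.722, 4.01, 0.418, 0.688 and 3.19 in shLuc. In both shRNAs Hoxd13 was highest at 24 h and day 14. It was lower in shSmyd5 at these stages, with log2 folds of -1.96 (-2.30 to -1.63) and -1.91 (-2.26 to -1.58).

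Hoxa10, a gene of the lumbar spine and uterus, had the highest mean level of Hoxa. It had an RPKM of 0, 0.685, 2.31, 0.948 and 1.14 in shSmyd5 and of 0.166, 11.8, 0.365, 1.58 and 3.77 in shLuc from ES cells to day 14. The 24 h value in shLuc, from 490 reads, was the second highest of any member in any library, and the log2 fold there was -3.92 (-4.28 to -3.58). At day 6 the order was turned, at 2.37 (2.01 to 2.73). Its other listed transcript showed the same peak, with 0.577 in shSmyd5 and 9.89 in shLuc at 24 h.

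**Figure D4:**
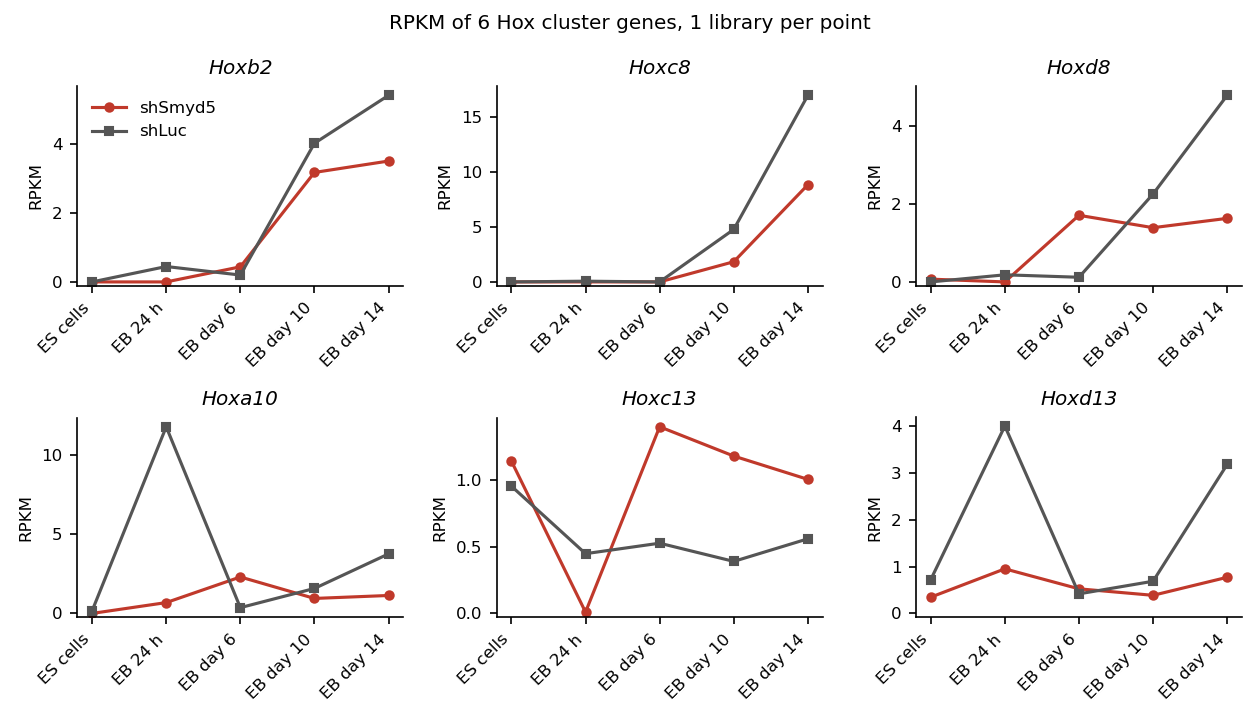
RPKM (y axis, linear, own scale in each panel) of Hoxb2, Hoxc8, Hoxd8, Hoxa10, Hoxc13 and Hoxd13 over the 5 stages (x axis) in shSmyd5 (red circles) and shLuc (grey squares), 1 library per point and no error bars. Hoxc8 reached 8.85 in shSmyd5 and 17.0 in shLuc at day 14, and Hoxa10 had its peak of 11.8 in shLuc at 24 h.

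The change over differentiation was tested in 1 fit of all 10 libraries, in which the 2 libraries of a stage serve as repeats. Of the 39 members 17 had a mean RPKM of at least 0.5 and entered it. Of these 17, 12 passed the stage test of edgeR's quasi-likelihood method (adjusted p of 0.05 over all genes), where 63.2% of all 13499 genes tested did so. Adjusted p was lowest for Hoxc8 (6.45e-05), Hoxb4 (0.0022), Hoxc9 (0.0035) and Hoxb3 (0.0047), and was 0.81 for Hoxc13. Against ES cells 5 of the 17 rose at 24 h (Hoxa3, Hoxa5, Hoxa10, Hoxb4 and Hoxd13), where 15.8% of all genes did. At day 6, 4 rose (Hoxa5, Hoxa10, Hoxb4 and Hoxd9), against 22.4% of all genes. At day 10, 9 rose, against 20.2%, and at day 14, 12 rose, against 25.7%, with none lower at an adjusted p under 0.05 at any stage. The 12 of day 14 came from all 4 clusters and were Hoxa3, Hoxa5, Hoxa10, Hoxb2, Hoxb3, Hoxb4, Hoxc6, Hoxc8, Hoxc9, Hoxc10, Hoxd8 and Hoxd9. As a gene with few reads had to be high somewhere to enter the fit, these shares describe the 17 and not the 39. Without the 24 h and day 6 stages 16 of the 17 passed the stage test, against 54.7% of all genes. Without the ES cell libraries 6 of the 17 did, a smaller share than the 46.2% of all genes.

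The difference between shSmyd5 and shLuc at each stage was described with the limits of the study, a fold of 2 and, in the higher of the libraries, an RPKM of 3 or more, and has no test. In ES cells and at day 6 no member reached that RPKM. At 24 h 2 of the 2 members that did were at least 2-fold lower in shSmyd5, Hoxa10 and Hoxd13, against 4.26% of all genes counted. At day 10 1 of 4 was at least 2-fold higher, against 3.15% of all genes, and 1 of 4 lower, Hoxc8, against 6.51%. With the trend of folds on GC content and transcript length taken out, 0 were higher at day 10. At day 14 5 of 8 were at least 2-fold lower, Hoxa10 (-1.65, -1.97 to -1.33), Hoxc9 (-1.28, -1.55 to -1.01), Hoxc10, Hoxd8 (-1.50, -1.84 to -1.16) and Hoxd13, against 4.07% of all genes. The remaining 3, Hoxb2 (-0.61), Hoxc6 (-0.66) and Hoxc8 (-0.93), were lower by less than 2-fold.

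Day 14 EBs showed the broadest difference. Of the 39 members 35 had a lower RPKM in shSmyd5 and 4 (Hoxb4, Hoxb13, Hoxc12 and Hoxc13) a higher one, and Hoxb13 and Hoxc12 had at most 3 reads there. Over the 23 members that were on in 1 or both libraries the log2 fold ranged from -2.04 to 0.75 with a median of -1.44, while the median over all 12851 genes at that level was -0.01. Of the 23, 16 were at least 2-fold lower in shSmyd5, against 6.19% of all genes at that level, and 0 at least 2-fold higher, against 3.46%. All 4 clusters had lower sums in shSmyd5: Hoxa 6.73 against 14.8 in shLuc, Hoxb 8.77 against 15.9, Hoxc 17.2 against 36.6, and Hoxd 3.797 against 12.9. With the trend taken out, folds gave a median of -1.57 over the same 23 genes.

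**Figure D5:**
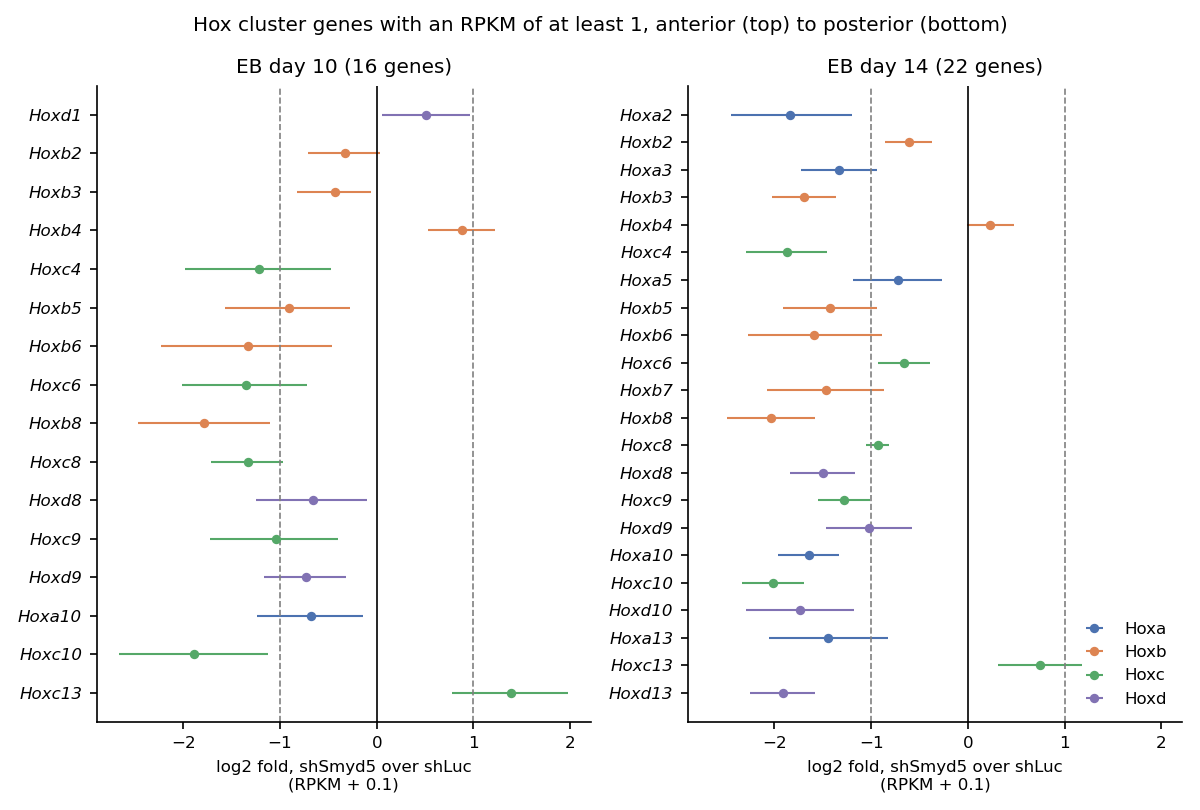
Log2 fold of shSmyd5 over shLuc (x axis, RPKM plus 0.1) at day 10 (left) and day 14 (right) for 16 of the 17 and 22 of the 23 Hox cluster genes that were on in 1 or both libraries, in order of paralog number from top to bottom and coloured by cluster. Bars are exact binomial 95% intervals of the reads (counting error only), and dashed lines mark 2-fold. At day 14 20 of the 22 points shown lie left of 0.

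At day 10 anterior genes were close to equal between the libraries in sum, and central and posterior genes were lower in shSmyd5. Among members of paralog groups 1 to 3 that were on, Hoxd1 had a log2 fold of 0.51 (0.05 to 0.97), whereas Hoxb2 and Hoxb3 were lower in shSmyd5 (Hoxb3 at -0.43, but at 0.44 with the GC and length trend taken out). Of the 8 of groups 4 to 8, 7 were lower, with a median of -1.27, and Hoxb4 was higher (0.88). Of the 5 of groups 9 to 13, 4 were lower, with a median of -0.74, and Hoxc13 was higher (1.39). Summed over all members of a group, the anterior genes 1 to 3 had 14.5 in shSmyd5 and 12.98 in shLuc, the central genes 4 to 8 had 11.4 in shSmyd5 and 19.4 in shLuc, and the posterior genes 9 to 13 had 6.88 and 12.4. The differences between these groups of genes were not tested. By day 14 all 3 groups were lower in shSmyd5, with medians of -1.33 (5 genes on), -1.45 (10) and -1.54 (8).

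The mean paralog number weighted by RPKM gives the position along the axis of the Hox RNA in a library. It was 7.47, 5.62, 7.64, 4.95 and 6.54 in shSmyd5 and 9.61, 8.98, 6.14, 6.12 and 7.13 in shLuc from ES cells to day 14. At day 10 shSmyd5 was thus more anterior by 1.18 groups (difference -1.18, -1.44 to -0.91), and without the most abundant gene of each library the means were 5.87 in shSmyd5 and 5.90 in shLuc. The day 10 shift therefore rested on those genes. At day 14 the difference was -0.59 (-0.73 to -0.45), with means of 6.08 in shSmyd5 and 6.90 in shLuc without Hoxc8, the most abundant gene in both. Within clusters, the rank correlation of RPKM with paralog number at day 10 was lowest in Hoxb of the 4 clusters, at -0.79 in shSmyd5 and -0.72 in shLuc over 10 genes of 1 library each, so anterior Hoxb genes were the more abundant in both.

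At 24 h posterior genes of Hoxa and Hoxd led in shLuc. Beside Hoxa10 and Hoxd13, Hoxa5 (1.47) and Hoxd11 (1.18) were on there. Groups 9 to 13 held 26.3% of the Hox RPKM in shSmyd5 and 74.8% in shLuc. Hoxa11, a limb and kidney gene, had 0 reads in shSmyd5 and 43 in shLuc, and Hoxa9, a gene of blood progenitors, had 0 and 27. As that shSmyd5 library had clumped reads, 0 reads there set no firm upper limit on a level. The Hoxb genes summed to 1.31 in shSmyd5 and 1.52 in shLuc, and the Hoxc genes to 0.540 and 0.982. Without any shSmyd5 library, within shLuc, the 24 h sum of 27.3 was above both 3.65 in ES cells and 5.27 at day 6. Hoxa10 in shLuc ES cells and day 6 EBs, at 0.166 and 0.365, was also far below its 24 h level. The day 6 difference in favour of shSmyd5 rests on the shSmyd5 day 6 library: 5 members were on there (Hoxa5, Hoxa10, Hoxc4, Hoxc13 and Hoxd8) with log2 folds from 0.90 to 3.04, 10 others had reads in shLuc only, and the shLuc day 6 library had none on. Without the 2 shSmyd5 libraries of 24 h and day 6, 7 of the 17 tested members rose at 24 h, against 19.2% of all genes, and 2 at day 6, against 20.9%.

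No effect of the Smyd5 hairpin shared by the 5 stages was found. In the same edgeR fit 0 of 17 members and 0% of the 13499 genes passed at an adjusted p of 0.05. Smyd5 itself was in the fit and, though lower in shSmyd5 at 5 of 5 stages, did not pass either. The lack of calls thus does not show that members were unchanged. At an unadjusted p under 0.05 there were 2, Hoxb4 (log2 fold 1.59, adjusted p 0.42), with the higher RPKM in shSmyd5 at 5 of 5 stages, and Hoxc8 (-1.38, adjusted p 0.43). For Hoxb4 the order in ES cells rested on 1 read in shSmyd5 and 0 in shLuc. Its values of 24 h and day 6 came from the libraries with clumped reads, and its day 14 interval was -0.01 to 0.48. limma called 0 members as well, and DESeq2 called 365 genes of which 0 were members. The common biological coefficient of variation of the fit was 0.354 with 4 residual degrees of freedom, and a difference that changes sign between stages counts as spread. Without the 24 h and day 6 stages again 0 members passed, with 5 at an unadjusted p under 0.05, and over all alternatives the adjusted p ranged from 0.31 to 1 for Hoxb4 and from 0.21 to 1 for Hoxc8.

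HOX proteins bind DNA with TALE homeodomain cofactors, the PBX and MEIS families and their relatives PKNOX1 and PKNOX2. Of these 9 genes 7 passed the stage test, against 63.2% of all genes tested, and 7 rose at day 14, against 25.7%. Meis2, for example, had an RPKM of 14.4 in shSmyd5 and 32.4 in shLuc day 14 EBs (log2 fold -1.16, -1.23 to -1.10). Meis1, with 6.62 and 13.4, and Pbx3, with 7.46 and 16.6, were also among the 4 of 8 counted cofactors that were at least 2-fold lower in shSmyd5 at day 14, against 4.07% of all genes. The median over the 9 was -1.004 there and -0.65 at day 10. Pbx2 (-0.16), Pknox1 (-0.10) and Meis3 (0.24) stayed within 2-fold.

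Inducers of Hox clusters and genes of the retinoic acid pathway made a list of 19 genes. It held the CDX factors, Brachyury, GDF11, hindbrain factors such as EGR2, and the retinoic acid pathway, including enzymes that degrade retinoic acid. Of the 11 counted at day 14, 1 was at least 2-fold higher in shSmyd5, against 3.17% of all genes, and 0 were lower, against 4.07%. The higher one was the retinol transporter Stra6, with 4.14 in shSmyd5 and 1.80 in shLuc. At day 10 1 of 10 was higher, against 3.15% of all genes, and 3 were lower, against 6.51%. The higher one there was the retinoic acid degrading enzyme Cyp26a1, with 34.3 in shSmyd5 and 17.1 in shLuc. Among the lower ones were the retinoic acid binding proteins Crabp1 (16.9 and 55.5) and Crabp2 (9.74 and 46.3). Rarb, a receptor and itself a retinoic acid target, had 4.38 in shSmyd5 and 2.97 in shLuc at day 10, and 5.06 and 8.70 at day 14. Cdx2, which acts on central Hox genes, had 5.67 and 10.6 at day 10, and 4.84 and 4.20 at day 14.

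Of 18 Polycomb and Trithorax-type regulators that keep Hox clusters off or on, 16 were found. None of the 15 counted at day 14 differed by 2-fold, and their median log2 fold was 0.07. At day 10, 2 of 15 were at least 2-fold lower in shSmyd5, against 6.51% of all genes, and 0 higher. At day 6, 3 of 14 were lower, against 19.4% of all genes, and 1 was higher, against 8.18%. At 24 h 1 of 14 was at least 2-fold lower, against 4.26% of all genes, and 1 was higher, against 13%. The lower was Bmi1, a subunit of Polycomb repressive complex 1, with 1.61 in shSmyd5 and 9.87 in shLuc (-2.54). The higher was Pcgf2, a paralog of it, with 44.2 and 19.4 (1.18). Eed, a core subunit of Polycomb repressive complex 2, had 168 and 165 at 24 h. These values rest on the shSmyd5 24 h library with clumped reads. Of 18 genes that flank the clusters, 13 were counted at day 14 and 0 of them differed by 2-fold in either direction, with a median of -0.19. Evx1, the homeobox gene beside Hoxa13, had 1.09 in shSmyd5 and 2.54 in shLuc at day 10. The noncoding list held 7 names, of which 6 had 0 reads in shSmyd5 and 5 or 6 in shLuc at each stage. Hoxa11as, antisense to Hoxa11, had at most 0.380 in shSmyd5, at day 6, and at most 0.953 in shLuc, at day 14.

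Markers of the cell types an EB can hold also differed, in both directions. Of all genes counted, 4.07% were at least 2-fold lower in shSmyd5 and 3.17% higher at day 14. At day 10 6.51% were lower and 3.15% higher, and at day 6 19.4% and 8.18%. Of 10 mesenchyme markers 10 were on at day 14, with a summed RPKM of 1925 in shSmyd5 and 3439 in shLuc, 4 of 9 counted were at least 2-fold lower, and none was at 0 reads. Their sum at day 10 was 224 in shSmyd5 and 568 in shLuc, and over the 5 stages it ranged from 3.67 to 1925 in shSmyd5 and from 4.36 to 3439 in shLuc. Of 5 neural markers, 3 of 4 counted at day 14 and 4 of 4 at day 10 were at least 2-fold lower in shSmyd5, with sums of 6.16 against 35.1 in shLuc at day 14 and 6.33 against 65.4 at day 10. Some other lists had members that were higher in shSmyd5. At day 14, 2 of 2 counted blood markers were at least 2-fold higher (sum of the 5 listed 207 in shSmyd5 and 79.7 in shLuc), though at day 10 3 of 5 were lower (213 and 308). Of the cardiac markers 3 of 3 counted were at least 2-fold higher at day 10 (sum 42.7 in shSmyd5 and 19.0 in shLuc) and 0 of 4 at day 14. Of 5 endoderm markers 3 were at least 2-fold higher at day 10 and 2 at day 14, with sums of 1164 in shSmyd5 and 1261 in shLuc at day 10 and 3131 and 3387 at day 14. Of 5 presomitic and axial mesoderm markers 1 was on at each stage, in 1 or both libraries. Their sums were 1.44 in shSmyd5 and 2.14 in shLuc at day 10, and 2.24 and 2.97 at day 14. At the stages with clumped shSmyd5 reads the sums were 360 and 147 at 24 h, and 23.1 and 8.37 at day 6. The part of these cell types in the lower Hox levels of shSmyd5 was not tested. At 24 h mesenchyme markers were low in both (sum 4.84 in shSmyd5 and 4.36 in shLuc), with Postn at 0 reads in both libraries and Col1a1 at 0.0712 in shSmyd5 and 0.499 in shLuc. At day 6 endoderm markers were higher in shSmyd5, 5 of 5 by at least 2-fold, with sums of 430.4 against 64.0 in shLuc, and their part in the day 6 Hox difference was not tested. Folds also followed base composition, with rank correlations between GC content and fold of -0.68, 0.58, -0.02, -0.39 and 0.32 from ES cells to day 14 across genes, which are no independent replicates. Hox transcripts had a median GC content of 53.7% against 49.7% for all genes.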

How the data were processed

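PolyA RNA of 10 samples (5 stages, shSmyd5 and shLuc, 1 library each) was sequenced. Per the labels and methods, Bowtie2 and CASAVA (versions not given in the sources used here) were used by the authors for single-end reads on the mm9 build. The deposited read counts are whole reads for 29257 RefSeq transcripts, the deposited RPKM values scale them to transcript length and library size, and a further deposited column gives the length in bases. In 100% of values with over 200 reads RPKM lay within 1% of what reads, length and library size give. For each symbol the transcript with the highest mean reads was used. RPKM is used as deposited; depth per library is given by the reads in genes, and exact binomial 95% intervals show the precision.

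Log2 folds used RPKM plus 0.1. Reads were tested in edgeR 4.0.16 (quasi-likelihood, TMM, stage plus shRNA, mean RPKM of 0.5 or more, Benjamini-Hochberg). Alternatives used limma 3.58.1, DESeq2 1.42.0, other filters, pseudocounts, scaling and transcripts, folds freed of a spline on GC content and length (20234 symbols), and each stage left out. Leaving out the 24 h and day 6 stages or their shSmyd5 libraries was chosen after seeing the data. The fit was tested on simulated data. GENCODE M1 on NCBIM37 gave coordinates and coding sequences. R 4.3.3 and Python 3.11.15 (matplotlib 3.10.9, scikit-learn 1.9.0, scipy 1.17.1, pandas 2.3.3, numpy 2.4.6) were used.

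The members and all gene lists were chosen with earlier results of these data known. Named with values in every library were the member with the highest mean RPKM in each cluster and those reaching an RPKM of 10. Members called at 2-fold are named, and Hoxc13 and Hoxd13 were given in full after their values were seen. Other lists were given by counts. Some genes are not reported here by name, although counts, sums and medians include them. Promoters were not used here, and ChIP-Seq data were not analysed here.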

Additional observations from a re-analysis of the deposited data

Results flagged for a closer look

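The summed Hox RPKM was lower in shSmyd5 than in shLuc at 24 h (log2 ratio -1.93) and day 14 (-1.14) but higher at day 6 (1.36), so the sign of the difference changed between stages. Hoxa10 did the same, with a log2 fold of -3.92 at 24 h and 2.37 at day 6. With 1 library per condition the difference between stages was not tested. Both the 24 h and the day 6 value rest on an shSmyd5 library with clumped reads, in which 2 and 0 members had 1 to 9 reads, whereas 8 members did in shSmyd5 day 14 EBs.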

How the results depend on the processing

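Of 189 alternative values of the main results, 146 kept their direction and stayed within the limits set for a change, and none of the 189 reversed. Among single members that were on, which those values do not cover, Hoxb3 at day 10 changed sign (-0.43, and 0.44 with the GC and length trend taken out). The calls at 2-fold depended on the RPKM minimum. With a minimum of 1 there were 1 of 2 higher in ES cells (5.10% of all genes), 3 of 5 lower at 24 h (6.83%), 4 of 5 higher at day 6 (8.64%), 2 of 17 higher (3.39%) and 7 lower (9.17%) at day 10 and 16 of 23 lower at day 14 (6.19%). With a minimum of 10 there were 1 lower at 24 h, 0 higher and 0 lower at day 10 and 0 lower at day 14, as few members reach it. At 1.5-fold there were 2 of 4 higher at day 10 (10% of all genes) and 8 of 8 lower at day 14 (11.1%). At day 10 there were 0 higher with a pseudocount of 1 and with the GC and length trend taken out. A pseudocount of 1 gave median log2 folds of -0.82 at 24 h, 0.74 at day 6 and -0.75 at day 14, since it shrinks folds of low genes. Without an RPKM minimum the medians were -0.48 at 24 h and 0 at day 6. With TMM library sizes the log2 ratio of summed RPKM was -2.11 at 24 h, 1.69 at day 6 and -0.32 at day 10. Weighting the mean paralog number by log2 of RPKM plus 1 gave differences of -2.53 at 24 h, -0.59 at day 10 and -0.30 at day 14. At an RPKM of 3 the members on in shSmyd5 were 0, 0, 0, 3 and 2 from ES cells to day 14, and in shLuc 2 at 24 h, 3 at day 10 and 8 at day 14. At 0.5 they were 7, 9, 15 and 16 in shSmyd5 from 24 h to day 14, and in shLuc 3 in ES cells, 11 at 24 h, 3 at day 6 and 27 at day 10. The stage test called 19 of 33 members at a mean RPKM of 0.1, where 57.5% of all genes passed, 22 of 39 without a filter (48.7%), and 6 (without ES cells, 46.2%) to 14 (without day 6, 62.9%) of 17 with 1 stage left out. The shRNA test called 0 in every setting. The causes were not tested unless given.

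The stage term of the fit pairs the libraries of a stage, and without that term the shRNA test again called 0 of 17 members, with 0 at an unadjusted p under 0.05. The labels give no replicate numbers for any other pairing. The shLuc ES cell library, with 46 Hox reads, limits what can be seen in ES cells: 3 reads of a transcript of 2 kilobases there are worth more than the level of most members. Members with few reads have wide intervals, and counting error does not include the spread between cultures.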
